A study of Caenorhabditis elegans with 6 samples.

Results

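The *thn* genes of *C. elegans* form the thaumatin family, and 6 of them (*thn-1* to *thn-6*, of which *thn-3* is annotated as a pseudogene) were followed in the 6 RNA-seq libraries of the series. They were chosen by name, and all 6 stand among the 20661 genes of the joined tables. Total RNA came from mixed-stage cultures grown at 20 °C on *E. coli* OP50, with 2 libraries per strain. WT is the N2 strain. The *daf-2(-)* strain carries the *e1370* allele of the insulin/IGF-1 receptor gene, and the double mutant, *daf-16(-);daf-2(-)*, carries the same *e1370* allele together with *mgDf50*, an allele of the FOXO factor gene *daf-16*. Both mutants thus share the *daf-2* allele. Each genotype is a single strain, and the make-up of the mixed cultures by age is not given.

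Thaumatin-like proteins were first known from plants, where members of the family accumulate after infection and some act against fungi. Nematodes have a family of their own, and *thn-2* has been followed as a defence gene during infection with *Pseudomonas aeruginosa*. Low insulin signalling through DAF-2 lets DAF-16 enter the nucleus, and *daf-2* mutants are known to resist several bacterial pathogens. No roles are given here for *thn-3* to *thn-6*. In the RefSeq annotation of WBcel235, *thn-8*, *thn-1*, *thn-3* and *thn-2* follow each other on chromosome IV, *thn-6* and *thn-5* are neighbours elsewhere on chromosome IV, and *thn-4* lies on chromosome V. The same annotation lists *thn-3*, *thn-7* and *thn-8* as pseudogenes. The reads had been aligned to another build, WS230, so no coordinates are given.

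Levels are in RPKM, which scales reads by exon length and by library size, so that levels of different genes can be set side by side. Depth was estimated from the steps between the lowest values, and lay between 9540000 reads (*daf-2(-)* replicate 2) and 15700000 reads (WT replicate 1). The label of the double mutant was checked by *daf-16*, at 6.44 and 4.6 RPKM there and between 22.37 and 29.36 RPKM in the other 4 libraries. Stage and tissue markers differed between strains. Markers are called here as in the comparisons below, at an unadjusted p of 0.05 from limma and a fold change of 2. Over all genes, 4.84% were called higher and 7.77% lower in *daf-2(-)* than in WT. The summed RPKM of 4 dauer markers was 2.47 to 3.4 in WT, 35.65 to 88.24 in *daf-2(-)* and 3.36 to 5.38 in the double mutant, with 3 of 4 called higher in *daf-2(-)* against WT and *cut-1* at 0 in a WT library. For 9 germline and oocyte markers the sums were 1261 to 1418, 468.6 to 594.2 and 1976 to 2604, with 7 of 9 called lower in *daf-2(-)* than in WT. For 8 intestine markers, all above 0 in every library, they were 4602 to 5374, 5803 to 6858 and 3203 to 4465, with 1 of 8 called higher (*ges-1*). The part of these differences in the *thn* values was not tested, and in such bulk RNA fewer cells of a type and less RNA per cell cannot be told apart.

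The 6 genes differed widely in level. The highest was *thn-2*, whose mean over the 6 libraries, 108.3 RPKM, lay at percentile 93.37 of all genes, followed by *thn-1* with a mean of 13.2 RPKM. In every library *thn-2* was above *thn-1*, and *thn-1* was above the other 4. The means of those were 0.79 RPKM for *thn-5*, 0.395 for *thn-3*, 0.0783 for *thn-6* and 0.025 for *thn-4*. Neighbours in this order overlapped between libraries among these 4, so their order was not beyond their spread.

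WT gave 20.21 and 75.97 RPKM of *thn-2*, *daf-2(-)* gave 173.27 and 199.99, and the double mutant 51.43 and 129.07. Both *daf-2(-)* libraries were above the other 4, and the double mutant overlapped WT. For *thn-1*, WT gave 1.27 and 4.95 RPKM, *daf-2(-)* 10.29 and 20.28, and the double mutant 7.72 and 34.69. Every library of either mutant was above both WT libraries here, and the highest value was in the double mutant.

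The weaker genes rested on few reads. For *thn-5*, WT gave 0.09 and 0.42 RPKM, *daf-2(-)* 2.84 and 1.19, and the double mutant 0.11 and 0.09. The *daf-2(-)* libraries were again above the other 4. With the exon length in WBcel235, these values stand for about 34.7 and 9.9 reads in *daf-2(-)* and at most about 4.94 in the other libraries. The gene *thn-3* had 0.9 and 1.47 RPKM in *daf-2(-)*, which is at most 9.42 and 10.5 reads if its whole span was counted. It stands in neither of the other tables and was taken as 0 there. The gene *thn-4* was above 0 only in *daf-2(-)* replicate 2, at 0.15 RPKM or about 1 read. For *thn-6*, WT gave 0.18 and 0.1 RPKM, *daf-2(-)* 0.1 and 0, and the double mutant 0 and 0.09, at most about 2.15 reads in a library. Neither *thn-4* nor *thn-6* was called in any comparison of strains, and with so few reads small differences could not be seen.

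**Figure D1:**
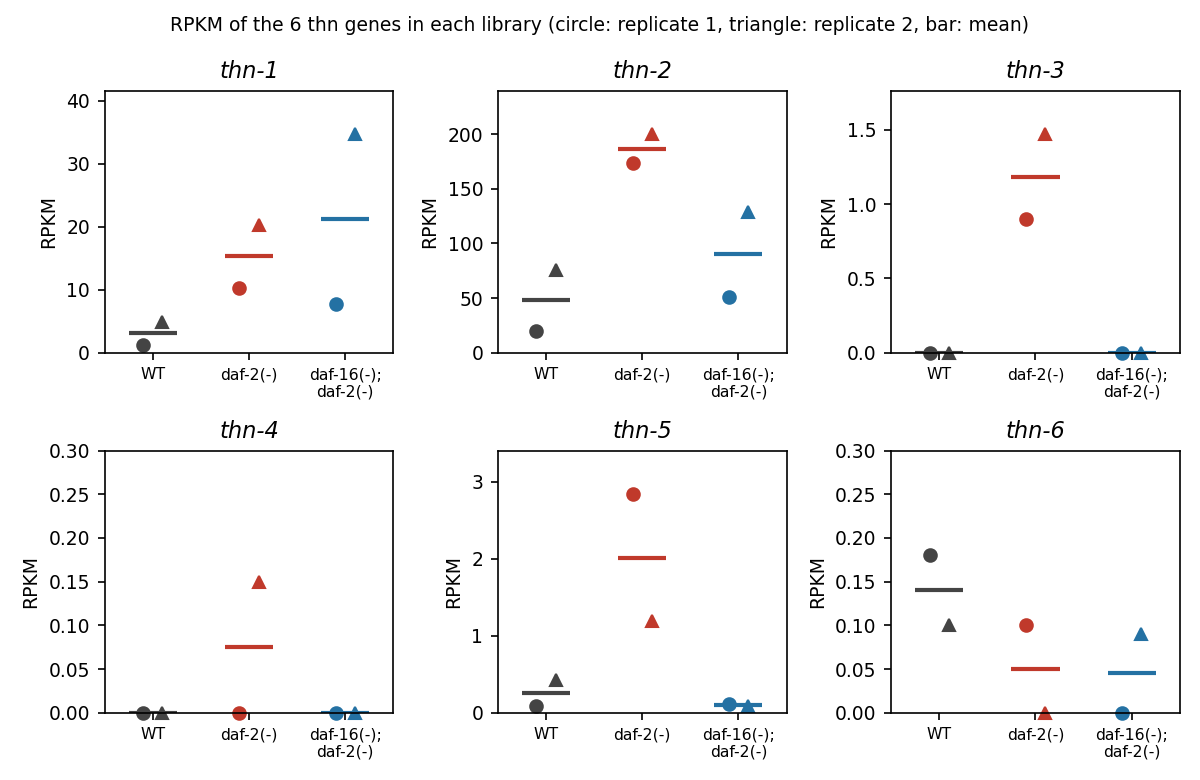
RPKM of each *thn* gene (vertical axes, each panel with its own linear scale from 0) in both libraries of each strain, with circles for replicate 1, triangles for replicate 2 and bars for their mean. For *thn-2*, *thn-3* and *thn-5* both *daf-2(-)* libraries lie above the other 4, while *thn-1* reaches its highest value, 34.69 RPKM, in the double mutant.

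Replicates of a strain stood far apart in *thn-1* and *thn-2*. The RPKM of *thn-2* differed 3.76-fold within WT, 1.15-fold within *daf-2(-)* and 2.51-fold within the double mutant. Among genes averaging at least 1 RPKM and above 0 in WT replicate 1, 0.864% differed as much within WT. For *thn-1* the replicates differed 3.9-fold, 1.97-fold and 4.49-fold. In each strain replicate 2 was the higher for both genes, as was so in all 3 strains for 10.22% of the 14395 genes averaging at least 1 RPKM. The summed RPKM of 4 adult markers was also higher in WT replicate 2 (15520) than in replicate 1 (7608). Of these, the yolk protein genes *vit-2*, *vit-5* and *vit-6* were each higher in replicate 2, and the cuticle collagen gene *col-19* was lower (493.54 against 1085.82 RPKM). The sum of 6 larva and moult markers was lower in WT replicate 2 (1268 against 1865). The adult markers were at 12920 and 15360 in replicates 1 and 2 of *daf-2(-)* and close in the double mutant (11740 and 11380). The sum of intestine markers was higher in replicate 2 in all 3 strains. It was 4602 and 5374 in WT, 5803 and 6858 in *daf-2(-)*, and 3203 and 4465 in the double mutant. Most of this sum was *asp-1* (2815.92 in WT replicate 1), and the markers did not all move together. In *daf-2(-)*, *elt-2*, *ifb-2*, *pept-1* and *mtl-2* were lower in replicate 2, while *elt-7*, *act-5*, *ges-1* and *asp-1* were higher. In WT *pept-1* was slightly lower there. The part of these markers in the spread of *thn-1* and *thn-2* was not tested.

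To ask which *thn* genes change under low insulin signalling, *daf-2(-)* was compared with WT. Differences are of log2(RPKM + 1), with standard errors from 1 limma fit over the 6 libraries, and the added 1 RPKM makes those of weak genes smaller. A gene was called when limma's unadjusted p reached 0.05 and the fold change 2. Of the 6 genes, 4 rose in *daf-2(-)* (*thn-1*, *thn-2*, *thn-3* and *thn-5*) and 0 fell, where 4.84% of all genes were called higher and 7.77% lower. With the adjusted p 3 remained (*thn-2*, *thn-3* and *thn-5*), where 4.54% of all genes were called higher and 7.14% lower. The median log2 difference was 1.17 over the 6 genes and -0.11 over all genes. No label says that replicates came from separate cultures, so the p-values measure only the spread between these libraries.

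In WT *thn-2* averaged 48.1 ± 39.4 RPKM (SD, n = 2) and in *daf-2(-)* 187 ± 18.9 RPKM (SD, n = 2), a ratio of 3.88. Its log2 fold change was 2.21 (SE 0.63, limma adjusted p = 0.0427). For *thn-1* the means were 3.11 ± 2.6 (SD, n = 2) and 15.3 ± 7.06 (SD, n = 2) RPKM, a ratio of 4.91. Its log2 fold change was 2.08 (SE 0.73, limma adjusted p = 0.0789), called at the unadjusted p only. For *thn-5* the means were 0.255 ± 0.233 (SD, n = 2) and 2.02 ± 1.17 (SD, n = 2) RPKM, a ratio of 7.9, and the log2 fold change with the added 1 RPKM was 1.22 (SE 0.27, limma adjusted p = 0.0215). No fold is given for *thn-3*, listed in no WT library. Its fitted difference of 1.12 (SE 0.14, limma adjusted p = 0.0058) depends on the added 1 RPKM. With *thn-3* taken as 0 in WT and the double mutant, its own spread came from the *daf-2(-)* libraries alone, so its p-value is not comparable with the others.

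The calls of all 4 genes were lost in at least 1 fit that left a library out. That of *thn-2* was lost without WT replicate 1 (log2 fold change 1.28) and without *daf-2(-)* replicate 1 (2.31) or 2 (2.11). That of *thn-1* was lost without WT replicate 1 (1.38) or 2 (2.77) and without *daf-2(-)* replicate 1 (2.53) or 2 (1.62). The call of *thn-5* was lost without WT replicate 1 (1.03) or *daf-2(-)* replicate 1 (0.82), and that of *thn-3* without *daf-2(-)* replicate 2 (0.93). The differences of these 4 genes stayed positive with each library left out. Each such fit leaves 1 library in a strain, so a call can be lost without a fall in the difference. That of *thn-2* without *daf-2(-)* replicate 1 was above its 2.21 with all libraries. That of *thn-1* without WT replicate 2 was likewise above its 2.08.

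**Figure D2:**
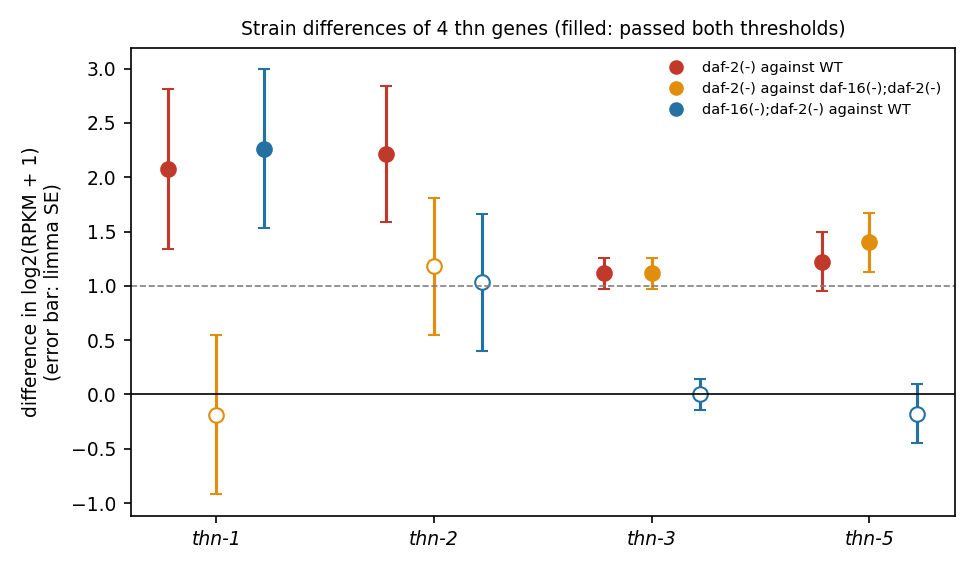
Difference in log2(RPKM + 1) between strains (vertical axis) for *thn-1*, *thn-2*, *thn-3* and *thn-5*, with limma's standard error as error bars, filled where the gene was called and with a dashed line at the fold change of 2. All 4 genes were called in *daf-2(-)* against WT, *thn-3* and *thn-5* also against the double mutant, and *thn-1* in the double mutant against WT.

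The comparison of *daf-2(-)* with the double mutant asks which levels differ with *daf-16*, and shares its *daf-2(-)* libraries with the one before. Of the 6 genes, 2 were higher in *daf-2(-)* (*thn-3* and *thn-5*) and 0 lower, where 5.65% of all genes were called higher and 15.8% lower. Both were also called with the adjusted p, where 5.46% of all genes were higher and 15.5% lower. The median log2 difference was 0.61 over the 6 genes and -0.15 over all genes. The mean of *thn-5* in the double mutant was 0.1 ± 0.0141 RPKM (SD, n = 2), a level of about 1 read per library. The log2 difference of *daf-2(-)* from it was 1.40 (SE 0.27, limma adjusted p = 0.00771), which was 0.99 and no longer called without *daf-2(-)* replicate 1. In the WBcel235 annotation 150 of the 872 exon bases of *thn-5* are shared with Y59E9AL.37 on the opposite strand, and without known use of strand their reads cannot be told apart. The fitted difference of *thn-3*, not listed in the double mutant, was 1.12 (limma adjusted p = 0.00227), and its call was lost without *daf-2(-)* replicate 2 (0.93). As WT and the double mutant were both taken as 0, this repeats its difference from WT and adds no separate result.

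The abundant members were not called in this comparison. The double mutant had a mean of 90.2 ± 54.9 RPKM (SD, n = 2) of *thn-2*, and the log2 difference was 1.18 (SE 0.63, limma adjusted p = 0.2). With median-ratio scaling of the libraries it was 1.61 and *thn-2* was called, while with quantile normalization it was 1.23 and *thn-2* was not called. Over the 14395 genes averaging at least 1 RPKM the median log2 difference of *daf-2(-)* from the double mutant was -0.34 as deposited, 0.02 with median ratios and -0.07 with quantiles. Against WT it was -0.28 as deposited. For *thn-1* the double mutant had a mean of 21.2 ± 19.1 RPKM (SD, n = 2), and the log2 difference was -0.19 (SE 0.73, limma adjusted p = 0.875). It turned positive when libraries were scaled by median ratios (0.22) or quantile normalized (0.20), so no direction is given for *thn-1* between the mutants.

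In the double mutant against WT, where both genes differ, 1 of the 6 genes was higher and 0 lower, where 1.42% of all genes were called higher and 0.736% lower. This was *thn-1*, whose means had a ratio of 6.82 and whose log2 difference was 2.26 (SE 0.73, limma adjusted p = 0.197). With limma's adjusted p 0 of the 6 were called, and by the same adjusted p 0.116% of all genes were higher and 0.0387% lower. The median log2 difference was 0.00 over the 6 genes and 0.05 over all genes. The call of *thn-1* was lost without WT replicate 1 (1.57), without double mutant replicate 2 (1.25), without either *daf-2(-)* replicate and in a fit of these strains alone (2.26 in each). Leaving out *daf-2(-)* libraries did not change the difference itself, only the estimate of its spread. The log2 fold change of *thn-2* was 1.03 (SE 0.63, limma adjusted p = 0.418), and it was 1.96 and called without WT replicate 2. That of *thn-5* was -0.18 (SE 0.27, limma adjusted p = 0.775).

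The ratio of *thn-2* to *thn-1* within each library, which no scaling of a library changes, was examined after their values had been seen. It was 15.9 and 15.3 in WT, 16.8 and 9.86 in *daf-2(-)*, and 6.66 and 3.72 in the double mutant. Both double mutant libraries were below the other 4. On the log2 scale the ratio averaged 3.97 ± 0.04 (SD, n = 2), 3.69 ± 0.55 (SD, n = 2) and 2.32 ± 0.59 (SD, n = 2). WT was 1.65 and *daf-2(-)* 1.37 above the double mutant, each with p = 0.333 in a two-sided exact permutation test, the smallest that 2 against 2 libraries allow. The difference between WT and *daf-2(-)* was 0.28 (exact permutation p = 1).

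**Figure D3:**
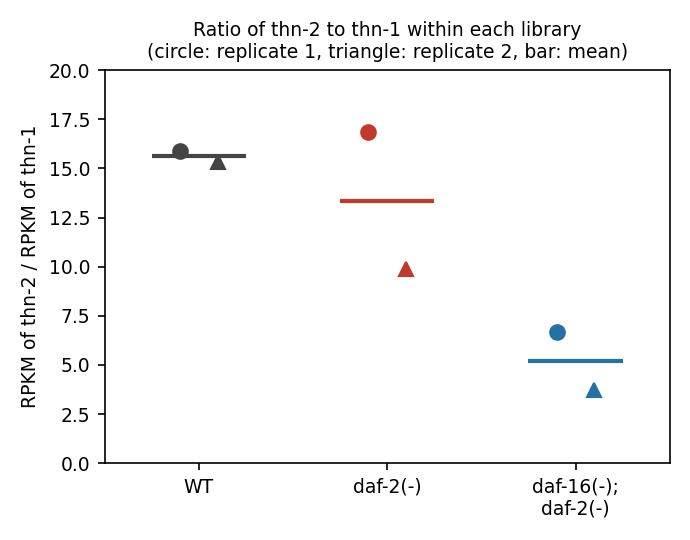
RPKM of *thn-2* divided by that of *thn-1* (vertical axis, linear from 0) in each library, with circles for replicate 1, triangles for replicate 2 and bars for their mean. Both double mutant libraries, at 6.66 and 3.72, lie below the WT and *daf-2(-)* libraries, which lie between 9.86 and 16.8.

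The genes next to *thn-1* and *thn-2* were read as well. F28D1.6, which follows *thn-2*, had 11.47 and 11.38 RPKM in WT, 10.64 and 8.37 in *daf-2(-)*, and 6.67 and 15.23 in the double mutant, and was called in 0 of the 3 comparisons by limma at the unadjusted p. The pseudogene *thn-8*, before *thn-1*, lay between 0 and 0.5 RPKM and was not called either. Whether *thn-3* shares reads with *thn-1* or *thn-2* was not tested. In double mutant replicate 2 *thn-3* was not listed while *thn-1* stood at 34.69 and *thn-2* at 129.07 RPKM. In *daf-2(-)* replicates 1 and 2 it was at 0.9 beside 10.29 and 173.27, and at 1.47 beside 20.28 and 199.99. Thus *thn-3* was listed only in the strain where *thn-2* was highest. In the other cluster *thn-6* had 0.1 RPKM in the library where its neighbour *thn-5* had 2.84, and *tbx-42*, a T-box gene on the other side of *thn-5*, lay between 0 and 0.43 RPKM.

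The genes whose pattern over the 6 libraries was most like that of *thn-2* were T22B7.7, *swt-6* (a SWEET family sugar transporter gene) and *dhs-26* (a short-chain dehydrogenase gene). Likeness was the root mean square distance between log2(RPKM + 1) values centred on their mean, searched over 14393 genes. The distances were 0.29, 0.35 and 0.38, while *thn-1* lay at 0.69 from *thn-2*. T22B7.7 had 74.33 and 181.67 RPKM in WT, 377.22 and 411.46 in *daf-2(-)*, and 153.98 and 271.38 in the double mutant, which orders the 6 libraries as *thn-2* does. The genes closest to *thn-1* were C15B12.8, Y49G5A.1 and F57A10.2, at 0.51, 0.64 and 0.65. C15B12.8 had 1.71 and 2.17 RPKM in WT, 12.97 and 14 in *daf-2(-)*, and 6.54 and 17.15 in the double mutant, so that, as for *thn-1*, double mutant replicate 2 was highest. These genes were picked for their closeness over the same libraries, so a shared order or peak is no separate result.

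**Figure D4:**
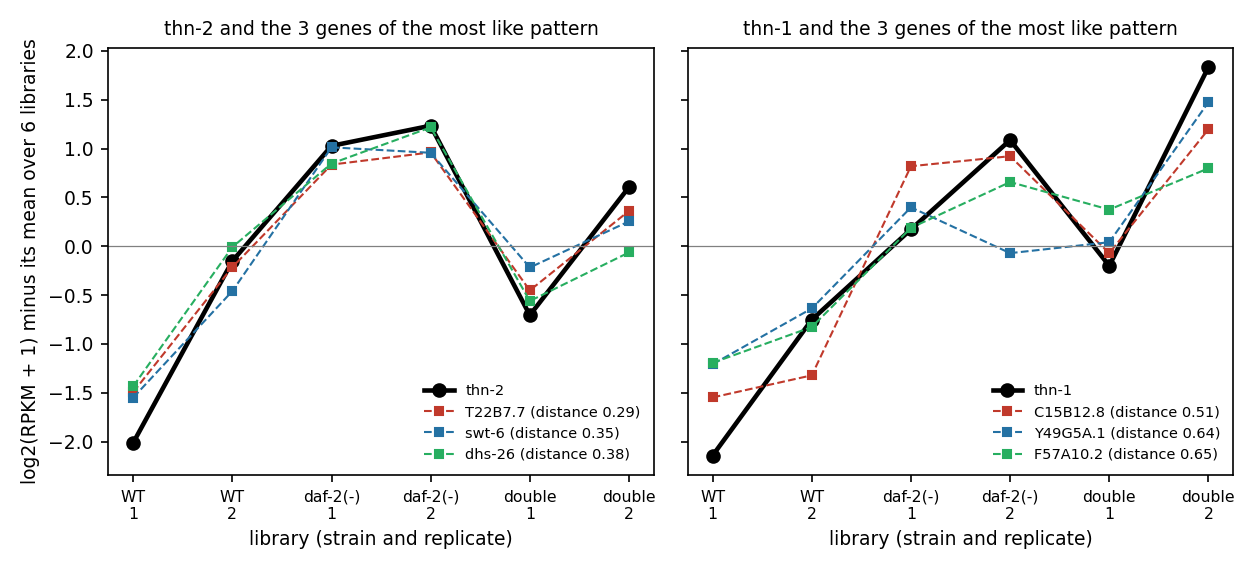
log2(RPKM + 1) minus its mean over the 6 libraries (vertical axis) in each library (horizontal axis) for *thn-2* and *thn-1* in black and for the 3 genes of the most like pattern in colour. Lines join the points of a gene. WT replicate 1 is lowest for both *thn* genes, and *thn-2* peaks in *daf-2(-)* where *thn-1* peaks in double mutant replicate 2.

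Other defence genes were set beside the *thn* genes. Over all genes, 4.84% were called higher and 7.77% lower in *daf-2(-)* than in WT. Against the double mutant these shares were 5.65% and 15.8%. Of 10 *lys* genes, which code for lysozymes, 5 were higher and 2 lower in *daf-2(-)* than in WT (median log2 difference 0.58), and 4 and 2 against the double mutant (median 0.63). The largest difference was that of *lys-7*, 3.71 against WT and 3.83 against the double mutant (limma adjusted p = 0.0117 and 0.0046). Of 23 *spp* genes, which code for saposin-like proteins, 8 were higher and 0 lower against WT (median 0.55), and 13 and 0 against the double mutant (median 1.15). Like *thn-3*, *spp-9* was listed in *daf-2(-)* alone, at 27.93 and 22.32 RPKM. Of the 15 *cnc* and *abf* antimicrobial peptide genes in the tables, 4 were higher and 1 lower against WT (median 0.04), and 5 and 0 against the double mutant (median 0.15).

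Of 14 intestinal genes known to respond to pathogens, 2 were higher and 3 lower in *daf-2(-)* than in WT (median 0.00), and 3 and 7 against the double mutant (median -0.81). The shares over all genes were 4.84% higher and 7.77% lower against WT, and 5.65% and 15.8% against the double mutant. Against WT the log2 differences of those called were -4.88 for *dod-24* (limma adjusted p = 0.000442), -2.64 for *dod-22*, 2.62 for *clec-85*, -2.19 for *F55G11.2* and 1.11 for *K08D8.5*. In the double mutant against WT, where *thn-1* was the member called, 5 of the 14 were higher and 1 lower (median 0.57). Over all genes 1.42% were called higher and 0.736% lower there. The largest rises among the 14 were those of T24B8.5 (1.66, limma adjusted p = 0.168) and F35E12.5 (1.54, limma adjusted p = 0.0585), called like *thn-1* at the unadjusted p only. In *daf-2(-)* against WT, where *thn-1* was 2.08 higher, the differences of T24B8.5 and F35E12.5 were -0.05 and -0.66 (limma adjusted p = 0.95 and 0.0509). Of the p38 MAPK cascade, which controls many immune genes, 5 of 6 components stood in the tables under their names, and limma called 0 of them at the unadjusted p in any of the 3 comparisons.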

How the data were processed

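RNA of 3 strains was sequenced in 2 replicates each. The submitters' notes name CASAVA 1.8.2. The authors aligned trimmed reads to WS230 in CLC Genomics Workbench and deposited RPKM per gene, in 1 table per strain that lists genes above 0 in at least 1 replicate. Use of strand and treatment of reads matching several genes are not given in the sources used here.

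Tables were joined by gene name, unlisted genes taken as 0, and 6 names on several lines left out. All 20661 genes were fitted with limma 3.58.1 (R 4.3.3) on log2 values of the deposited RPKM plus 1, using a mean-variance trend and Benjamini-Hochberg adjustment. The authors' beta-binomial test needs counts and was not used. Depth is the number of reads, searched from 8000000 to 18000000, that made RPKM times exon length closest to whole reads in short, weak genes. Exon lengths from WBcel235 matched 80.19% of genes, and other search limits moved a depth by up to 4.19%. The fit was tested on simulated data.

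Members and gene lists were chosen with earlier results of these data known. Named genes are the members, their neighbours, *daf-16*, called genes of the lists (largest first) and, for called members averaging at least 1 RPKM, the 3 genes of closest pattern. *T24B8.5* and *F35E12.5* in *daf-2(-)* against WT are named for their call in the double mutant. Alternatives were other pseudocounts, a low-value filter, other scalings, limma without the trend, separate fits, a replicate block, adjusted p-values, ratios of means and each library left out.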

Additional observations from a re-analysis of the deposited data

How the results depend on the processing

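With each library left out, limma at the unadjusted p called 1 to 4 *thn* genes in *daf-2(-)* against WT (4 with all libraries), 1 to 2 against the double mutant (2) and 0 to 2 in the double mutant against WT (1). A minimum mean of 1 RPKM removed *thn-3* to *thn-6* from the test, which left 2 calls against WT (*thn-1* and *thn-2*) and 0 against the double mutant. For the double mutant against WT, a fit of these strains alone and the adjusted p each gave 0 calls, against 1 at limma's unadjusted p. The replicate block gave 2 there (*thn-1* and *thn-2*), and *thn-2* was also called with the block in *daf-2(-)* against the double mutant, with log2 differences of 1.03 and 1.18. The labels give replicates no pairing beyond their number, and across genes the difference of replicate 2 from 1 correlated at 0.11 and 0.16 between WT and each mutant and at -0.16 between the mutants. The difference of *thn-1* between the mutants, never called, turned to 0.22 under median-ratio scaling and to 0.20 under quantile normalization, and ranged from -1.20 to 0.83 with each library left out. That of *thn-5* in the double mutant against WT ranged from -0.37 to 0.013. The cause was not tested. For *thn-3* to *thn-6* the number of reads limits what could be seen.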

Other observations

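The pseudogene *thn-7*, near *thn-5* and *thn-6* on chromosome IV, lay between 0 and 0.31 RPKM in the 6 libraries. Marker lists not given with the results had these summed RPKM in WT, *daf-2(-)* and the double mutant. Hypodermis (7 genes) was at 1022 to 1367, 489.5 to 548.5 and 950.3 to 1140. Muscle (6 genes) was at 709.3 to 810.8, 1069 to 1104 and 704.6 to 783.1. Pharynx (5 genes) was at 18.93 to 21.29, 13.37 to 13.68 and 15.29 to 27.21. Neurons (6 genes) were at 239.9 to 270.7, 234.4 to 250.4 and 239.5 to 251.5. Sperm (6 genes) was at 90.23 to 98.16, 168.2 to 192.6 and 151.7 to 153.6. Embryo (6 of 7 genes listed) was at 7.6 to 14.75, 1.62 to 1.84 and 13.29 to 18.14. Their part in the *thn* values was not tested.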
